A study of Mus musculus with 12 samples.

Results

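Adding an anti-PD-1 antibody to DSP-0509 was examined in 6 of the 12 CT26 tumors of the series, chosen by their treatment labels alone. They were 3 tumors labelled DSP-0509 + PD-1 antibody, called the combination here, and 3 labelled with the treatment DSP-0509. CT26 is a mouse colon carcinoma line, and it was grown in the dorsal flank of BALB/c mice with an intact immune system. Mice received DSP-0509 at 5 mg/kg into a vein, the anti-PD-1 antibody at 200 µg/mouse, both agents, or vehicle, and every tumor was taken 4 days after dosing. Each tumor came from a different mouse, and the other 6 tumors (3 vehicle, 3 anti-PD-1 antibody alone) are used for the spread and as references. RNA of the whole tumor was counted on a mouse nCounter panel (PanCancer Immune Profiling), which reads each gene with a barcoded probe and without amplification. Because the tissue was not separated into cells, fewer cells of a type and less RNA per cell cannot be told apart in any value below.

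DSP-0509 is an agonist of TLR7, a receptor in the endosomes of dendritic cells and other myeloid cells that senses single-stranded RNA. It signals through the adaptor MyD88 to the interferon regulatory factors IRF5 and IRF7 and to NF-κB, which turn on type I interferons and inflammatory cytokines. PD-1, encoded by Pdcd1, is a receptor on activated T cells that dampens signals from the T cell receptor when it binds PD-L1 (Cd274) or PD-L2 (Pdcd1lg2). Both ligands are induced on tumor and myeloid cells by interferon gamma, a product of activated T cells and NK cells. The question of this comparison was therefore what blocking PD-1 added in mice that were also given the TLR7 agonist.

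Most genes of the panel had a higher mean in the combination than with DSP-0509 alone, but no single gene passed the test. The test was limma on log2(value + 1) over all 12 tumors, with Benjamini-Hochberg adjustment over the 646 of 750 endogenous genes whose signal reached 20 in 3 or more tumors. At an adjusted p under 0.05 limma gave 0 genes (0%), with 0.23 the lowest adjusted p of the panel. Without adjustment 64 genes had p under 0.05 (9.91%), 59 of them higher and 5 lower in the combination. That split was 113 and 3 with housekeeping genes as the scale, 19 and 50 with quantile normalization, and 13 and 85 with median centring. The unpaired t-test named in the study's methods gave 0 genes after the same adjustment and 61 before it. With the tumor number as a block in limma, 1 gene passed (0.155%, Itga2b) and 129 had p under 0.05 before adjustment. In 108 genes (16.7%) all 3 combination tumors lay above all 3 DSP-0509 tumors, and in 19 genes (2.94%) all 3 lay below them. The log2 differences ran from -0.79 (Nefl) to 1.38 (Mmp9), with 16 genes above 1 and 0 below -1. The 95% confidence interval reached past 1 for 247 genes and below -1 for 40, so a difference of that size lay within the error of 3 tumors against 3 for these genes. It lay wholly between -1 and 1 for 386 genes (59.8%).

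The shift was spread across the panel. Of the 646 genes, 488 (75.5%) had a higher mean log2 value in the combination, and the median log2 difference was 0.20. The median gene of a tumor was at a log2 value of 8.54, 8.69 and 8.76 in the combination tumors 1, 2 and 3, and at 8.29, 8.44 and 8.26 in the DSP-0509 tumors. These values did not overlap, and a two-sided exact permutation test gave p = 0.1, the smallest value that 3 tumors against 3 allow. The 20 housekeeping genes had the opposite sign, with a median log2 difference of -0.13 (range -0.35 to 0.29). The sign of the median difference changed with the scaling. Quantile normalization gives every tumor the same distribution of values, and centring gives every tumor the same median. Neither can therefore show a shift of the whole panel. Rescaling every tumor to its housekeeping genes raised the median difference to 0.27 and the share of higher genes to 84.7%, whereas quantile normalization turned the median to -0.041 with 45.5% higher, and centring each tumor on its median gene turned it to -0.13 with 35.4% higher. The genes without overlap then numbered 33 higher and 86 lower with quantile normalization, and 18 higher and 122 lower with centring. Centring took 0.33 from every log2 difference, so any gene or list given below at less than 0.33 on the deposited scale was lower in the combination after it. Of the 36 gene lists with a tested member, 33 had a median above 0 on the deposited scale and 16 after centring.

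**Figure D1:**
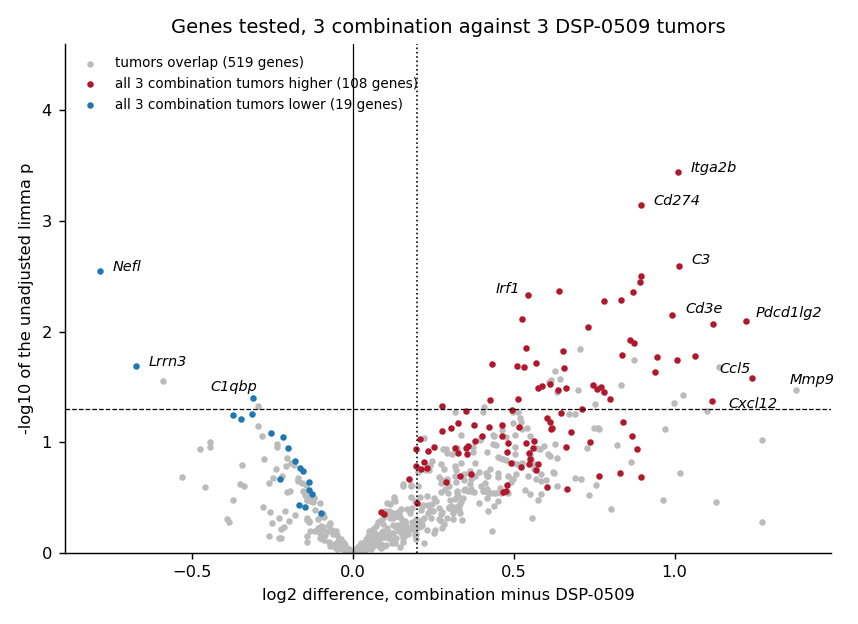
Each point is one of 646 genes, with the log2 difference of the combination from DSP-0509 on the x axis and the −log10 of the unadjusted limma p on the y axis. Red and blue mark genes whose 3 combination tumors all lay above (108) or all below (19) the 3 DSP-0509 tumors, the dashed line is the 0.05 level, the dotted line is the median difference of 0.20, and none of the points passed after adjustment.

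Total counts per tumor, read from the steps of the values, were 933613 to 1155698 in the combination and 750416 to 989088 with DSP-0509, and DSP-0509 tumor 3 was the lowest of the 12. This tumor was the lowest of its group in 52 of the 108 genes and the highest in 13 of the 19. The same counts over all genes tested are not given, so these cannot be read against the panel. Whether the depth of this tumor had a part was not tested. The brightest of the 8 negative control probes, brought to the scale of the genes, stood at 15.8 to 22.4 in the DSP-0509 tumors and 13.7 to 17.7 in the combination tumors. Only 12 of the genes tested lay at or below that level in all 3 DSP-0509 tumors, 3 of them among the 108 (Cd96, Il12b and Tnfrsf8). Of the epithelial markers fixed for the CT26 label, Epcam ran from 21.2 to 134 with DSP-0509 and 17.9 to 107 in the combination, Cdh1 from 31.3 to 114 and 47.5 to 75.5, and Muc1 from 61.9 to 94.1 and 69.7 to 85.8. All 3 overlapped between the groups. Mesothelin (Msln), a surface protein of many carcinomas, was much brighter at 2057 to 2137 and 1713 to 1969.

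Values of single genes are given for tumors 1, 2 and 3 in that order, and where they are set against each other the DSP-0509 tumors come first and the combination tumors after. Cd274, which encodes PD-L1, had the smallest p of the panel but one. Its signal was 1488, 992 and 976 in DSP-0509 tumors 1, 2 and 3 and 2153, 1897 and 2271 in the combination tumors. All combination tumors lay above all DSP-0509 tumors, and the difference was 1.86-fold (95% confidence interval 1.39 to 2.48, adjusted p = 0.23). The vehicle tumors stood at 714, 602 and 550.2, and the tumors given anti-PD-1 antibody alone at 1191, 954 and 1128. Without DSP-0509 tumor 1, the brightest of its group, the difference grew to a log2 value of 1.09 and passed (adjusted p = 0.0302), and it passed with array weights, which let noisier tumors count less. Over all alternatives the adjusted p ran from 0.0302 to 0.723, and the difference was positive in each, the lowest being 0.56 after median centring.

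Pdcd1lg2, encoding PD-L2, was at 57, 61.5 and 27.2 with DSP-0509 and 103, 78.3 and 156 in the combination. The groups did not overlap, and the 2.33-fold difference (95% confidence interval 1.31 to 4.14) had an adjusted p of 0.364. Pdcd1, the gene of the antibody's target, was at 225, 244 and 333 against 316, 272 and 551, with an overlap and a log2 difference of 0.46 (-0.40 to 1.31). Its vehicle tumors lay lower, at 56.1, 149.5 and 137.

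Inhibitory receptors of T and NK cells, Pdcd1 included, had higher means in 8 of 9 members tested, with a median log2 difference of 0.50 and 3 without overlap (16.7% over all genes). Ctla4, a receptor that competes with CD28 for its ligands, was at 60.4, 57.8 and 80.5 with DSP-0509 and 135, 81.1 and 147 in the combination. The lowest combination tumor exceeded the highest DSP-0509 tumor by a small margin, and the log2 difference was 0.83 (0.31 to 1.36, adjusted p = 0.311). Lag3, a receptor of exhausted T cells that binds MHC class II, was at 111, 128 and 126 against 138, 147 and 319, without overlap but with combination tumor 3 far above the rest. Cd96, a receptor for the nectin family, was also without overlap but at signals of 10.2 to 14.5 and 16.8 to 25.2, close to the negative controls. Klrg1 was the lowest of the list at -0.25. Havcr2 did not reach the filter. Without combination tumor 3 the median of the list was 0.22.

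Among inhibitory ligands and enzymes other than the PD-1 ligands, Arg1 and Nos2 stood above a log2 difference of 1 while their tumors scattered. Arg1, the arginase of myeloid cells, was at 2458, 797 and 895 with DSP-0509 and 4109, 2268 and 1565 in the combination. Nos2, the inducible nitric oxide synthase, was at 122, 44.7 and 55.7 against 189, 114 and 122. Both overlapped, with intervals of -0.59 to 2.62 and 0.073 to 1.98. Arg2, the mitochondrial arginase, is in no list and was picked after its values were seen. It separated without overlap at 112, 83.8 and 44.6 against 196, 116 and 172 (log2 difference 1.06, adjusted p = 0.422). Ido1, which degrades tryptophan, differed little, at 116, 82.9 and 142 against 86.6, 147 and 152 (log2 difference 0.16, -0.47 to 0.80), and its sign turned under quantile normalization and median centring.

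**Figure D2:**
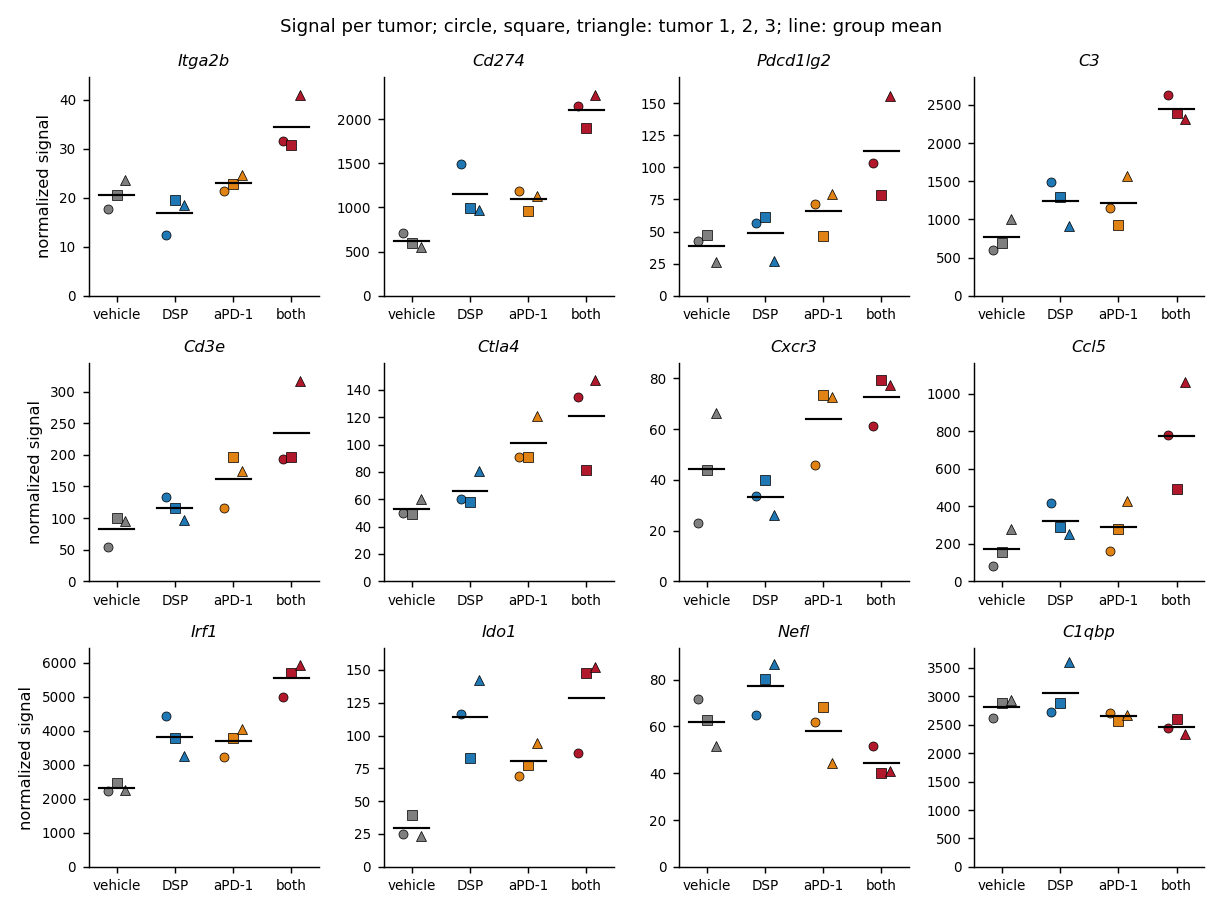
Normalized signal (y axis, from 0) of 12 genes in vehicle, DSP-0509 (DSP), anti-PD-1 antibody (aPD-1) and combination (both) tumors, with a circle, square and triangle for tumors 1, 2 and 3 of a group and a line at the group mean. In Itga2b, Cd274, Pdcd1lg2, C3, Cd3e, Ctla4, Cxcr3, Ccl5 and Irf1 all 3 combination tumors lay above the DSP-0509 tumors, in Ido1 they overlapped, and in Nefl and C1qbp they lay below.

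Itga2b, which encodes the αIIb integrin of platelets and megakaryocytes, had the smallest p. Its signal was 12.3, 19.6 and 18.6 with DSP-0509 and 31.7, 30.8 and 41.1 in the combination, and vehicle tumors stood at 17.7, 20.6 and 23.6. The groups did not overlap, but 2 of the 3 DSP-0509 values lay at or below the brightest negative control of their own tumor. The log2 difference was 1.01 (95% confidence interval 0.58 to 1.44, adjusted p = 0.23), and 1.99 after the mean of the negative controls was subtracted. In DSP-0509 tumor 1 that mean was 10.9 against a signal of 12.3, so the subtracted value there lay near the floor. Itga2b passed with the tumor number as a block (adjusted p = 0.0411) and with housekeeping genes as the scale (adjusted p = 0.044). With the block fitted on the 6 combination and DSP-0509 tumors alone it did not pass (adjusted p = 0.0683). Over all alternatives its adjusted p ran from 0.0411 to 0.723.

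The promoters of the 2 genes with the smallest p, Itga2b and Cd274, and of Irf1 are shown because the interferon gamma pathway leads to Cd274 through IRF1. They are RefSeq sequences of GRCm38.p6, from 250 bases before to 50 bases after a start in the promoter table (the first one given there for each gene), 5′ to 3′ on the strand of the gene. The RefSeq record of Cd274 begins farther upstream, at 29362107, and that end of the gene is not shown. STAT factors bind the interferon gamma activated site, searched as TTCNNNGAA, and IRF factors bind the interferon-stimulated response element, searched as a pair of GAAA runs with any 2 bases between them, each on both strands. Capitals mark the matches, and the matches do not overlap each other.
Itga2b (chr11:102469834-102470133, minus strand): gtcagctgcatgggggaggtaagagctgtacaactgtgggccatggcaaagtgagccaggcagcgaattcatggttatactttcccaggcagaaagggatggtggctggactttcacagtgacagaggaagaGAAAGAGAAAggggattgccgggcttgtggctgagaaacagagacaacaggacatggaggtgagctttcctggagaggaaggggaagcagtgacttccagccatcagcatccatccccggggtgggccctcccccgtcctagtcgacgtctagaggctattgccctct
Cd274 (chr19:29367188-29367487, plus strand): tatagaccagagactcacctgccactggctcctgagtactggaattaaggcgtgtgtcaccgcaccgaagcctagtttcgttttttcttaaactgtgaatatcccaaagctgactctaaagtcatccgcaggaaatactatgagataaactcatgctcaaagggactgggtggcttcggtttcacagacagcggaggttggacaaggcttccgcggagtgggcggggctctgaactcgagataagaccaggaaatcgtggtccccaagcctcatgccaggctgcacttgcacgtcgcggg
Irf1 (chr11:53769764-53770063, plus strand): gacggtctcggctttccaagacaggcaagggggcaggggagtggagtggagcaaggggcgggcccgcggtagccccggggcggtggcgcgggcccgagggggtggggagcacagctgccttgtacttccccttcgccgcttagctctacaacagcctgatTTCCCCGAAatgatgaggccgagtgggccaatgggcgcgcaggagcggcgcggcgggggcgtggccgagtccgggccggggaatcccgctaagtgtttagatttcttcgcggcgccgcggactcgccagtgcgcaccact

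The Irf1 window held 1 match to the first motif and the Itga2b window 1 match to the second, while the Cd274 window held neither. Over 1 promoter for each of 27025 genes, 8.47% held the first motif and 3.49% the second, and over the 478 of 646 tested genes with a promoter in the table the shares were 12.1% and 8.16%. Of the interferon gamma response list 8 promoters were in the table, 3 with the first motif and 5 with the second. A match is a description of these letters and not evidence of a bound site.

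T cell genes stood higher in the combination as a group, without any member passing the test. Of the T cell receptor complex and T cell surface list, 14 of 14 members tested had a higher mean, 7 were without overlap, and the median log2 difference was 0.60. Over all genes tested 75.5% had a higher mean, 16.7% were higher without overlap, and the median was 0.20. Cd3e, a signalling chain of the receptor complex, was at 134, 116 and 96.6 with DSP-0509 and 193, 197 and 316 in the combination (log2 difference 0.99, 0.33 to 1.65, adjusted p = 0.364). Its 3 combination tumors all exceeded the DSP-0509 tumors, and tumor 3 was the highest. The companion chains Cd3d and Cd3g had log2 differences of 0.75 and 0.76, both without overlap. Cd8a, a co-receptor chain of cytotoxic T cells, was at 131, 183 and 163 against 171, 186 and 455. Here combination tumors 1 and 2 lay within the range of the DSP-0509 tumors or just above it, and the log2 difference of 0.63 became 0.18 without combination tumor 3. Its partner Cd8b1 was without overlap (0.80), and Cd4, the co-receptor of helper T cells, overlapped (0.45). The median of the list was 0.29 without combination tumor 3 and 0.27 after median centring, where 12 of 14 members had a higher mean.

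Genes that carry the signal of the T cell receptor had higher means in 10 of 10 members tested, as did 75.5% of all genes. The median was 0.35, or 0.18 without combination tumor 3. Only Fyn, a Src family kinase, was without overlap, at 570.1, 653 and 672 against 697, 812 and 858. The kinases Lck and Zap70 had log2 differences of 0.42 and 0.56. Of 13 T cell transcription factors, Tbx21 (T-bet, the factor of type 1 T cells) had the largest difference, at 24.6, 15.8 and 32.2 with DSP-0509 and 31.7, 44.8 and 57.9 in the combination. Those values touched, with combination tumor 1 just below DSP-0509 tumor 3. Eomes, a related factor of memory and effector T cells, had a difference of 0.27, Tcf7 (TCF-1) of 0.45 and Maf of -0.011, and the median of the list was 0.21, close to that of all genes.

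Genes of regulatory T cells were higher on average in 4 of 4 members tested, as were 75.5% of all genes. Foxp3, their defining transcription factor, was at 11.2, 18.6 and 24.8 with DSP-0509 and 19, 19.6 and 37.3 in the combination, signals close to the negative controls. Its groups overlapped (log2 difference 0.45, -0.55 to 1.45). Ikzf2 (Helios) was without overlap at 57, 97.8 and 87.9 against 117, 106 and 124, and Il2ra, the high-affinity IL-2 receptor chain, overlapped (0.46). The remaining member, Ctla4, is given above and was also without overlap. So 2 of the 4 were without overlap (16.7% over all genes), and the median of the list was 0.50. Ccr8, a chemokine receptor of regulatory T cells in tumors, is not in this list. Its signal was 21.2, 23.3 and 23.5 against 30.6, 30.8 and 38.3 (log2 difference 0.52, adjusted p = 0.364), without overlap but low.

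Cytotoxic effector genes were divided. Fasl, the death ligand of cytotoxic cells, was at 50.3, 45.6 and 42.1 with DSP-0509 and 62.3, 65.3 and 95.2 in the combination. All combination tumors were higher, with a difference of 1.58-fold (1.09 to 2.29, adjusted p = 0.422), and the vehicle tumors stood at 14.6, 28 and 22.7. Ifng, the gene of interferon gamma, was at 33.5, 20.5 and 21.1 against 30.6, 33.6 and 70.0. Its lowest combination tumor lay below the highest DSP-0509 tumor, and the log2 difference was 0.75 (-0.089 to 1.59), or 0.38 without combination tumor 3. The granule genes differed less. Gzmb (granzyme B) was at 453, 271 and 419.7 against 478, 518 and 447, Prf1 (perforin) at 505, 353 and 518 against 530.0, 487 and 607, and Gzma (granzyme A) at 901, 952 and 1539 against 861, 1285 and 889. All 3 overlapped, with log2 differences of 0.37, 0.25 and -0.14. The sign of Gzma turned without DSP-0509 tumor 3 and with array weights. Over the 10 members of the list 8 had a higher mean, close to the 75.5% of all genes, and 3 were without overlap, against 16.7%. The median was 0.40, or 0.23 without combination tumor 3 and 0.072 after median centring.

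NK cell receptor genes differed by unequal amounts. Klrc1 (NKG2A, an inhibitory receptor of NK and CD8 T cells) was at 558, 402 and 301 with DSP-0509 and 642, 744 and 1151 in the combination, and its partner Klrd1 (CD94) at 534, 604 and 532 against 655, 755 and 1380. Both were without overlap, with log2 differences of 1.01 and 0.66. Ncr1 (NKp46), a marker of NK cells that T cells rarely carry, was at 198, 261 and 298 against 178, 284 and 328, a difference of 0.037 (-1.25 to 1.33) with complete overlap. Klra17, a receptor of the Ly49 family found on plasmacytoid dendritic cells and other myeloid cells of the mouse, was without overlap at 19, 15.8 and 17.3 against 30.6, 25.2 and 46.6 (adjusted p = 0.311). Of 22 members of the list 12 passed the filter, and the marker Klrb1c was among those that did not. Of the 12, 11 had a higher mean, where 75.5% of all genes did (median 0.40, 0.069 after median centring). Klrc2 was the fourth without overlap, and 16.7% of all genes were higher without overlap.

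Chemokines were not uniform. Ccl5, a chemokine made by T cells and myeloid cells, was at 416, 292 and 253 with DSP-0509 and 777, 492 and 1060 in the combination, against 81.1, 155 and 276 in vehicle tumors. All combination tumors were higher, 2.36-fold on average (1.13 to 4.93, adjusted p = 0.429). Ccl3 and Ccl4, chemokines of activated macrophages and T cells, had log2 differences of 1.14 and 0.71, the first with overlap. The interferon-induced ligands of CXCR3 differed less. Cxcl9 was at 2462, 2981 and 2774 against 2436, 3388 and 4793, and Cxcl10 at 1688, 1728 and 2323 against 1721, 2421 and 2458. Both overlapped, and their log2 differences of 0.32 and 0.20 turned negative after median centring (-0.012 and -0.13). Over this list 9 of 11 members tested had a higher mean and 3 were without overlap, near the shares over all genes (75.5% and 16.7%), with a median of 0.35.

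Of the chemokines that attract myeloid and other cells, 13 of 15 members tested had a higher mean and 3 were without overlap, the latter near the 16.7% of all genes. The median was 0.43, and 0.13 without DSP-0509 tumor 2. Cxcl12, the ligand of CXCR4 made by stromal cells, was at 988, 1131 and 594 with DSP-0509 and 2387, 1847 and 1541 in the combination (log2 difference 1.12, adjusted p = 0.465). Every combination tumor was above the DSP-0509 tumors, while the neutrophil attractants Cxcl1, Cxcl2 and Cxcl3 overlapped and had wide intervals (for Cxcl1 -1.25 to 2.85). The monocyte attractant Ccl2 differed by 0.39, and Ccl12 by -0.04.

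Chemokine receptor genes included 5 of 12 that were higher without overlap (16.7% of all genes) and 0 lower (2.94%). The list's median of 0.39 was 0.15 without combination tumor 3. Cxcr3, the receptor of effector T cells, was at 33.5, 40.1 and 26 with DSP-0509 and 61.2, 79.3 and 77.5 in the combination. The combination tumors were all higher, by 2.17-fold (1.28 to 3.69, adjusted p = 0.364), and the vehicle tumors spread from 22.9 to 66.4. Cxcr4 was at 245, 201 and 147 against 315, 311 and 290.2, Ccr7, which guides cells to lymph nodes, at 39.1, 43.8 and 47 against 79.2, 68.1 and 60.6, and Cxcr6 at 189, 277 and 281 against 302, 292 and 774. In Cxcr4 and Ccr7 the vehicle tumors (371, 234 and 310.1, and 45.7, 43.9 and 95.5) overlapped the combination tumors. The monocyte receptors Ccr2 and Cx3cr1 had log2 differences of -0.05 and -0.22.

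Genes that respond to interferon gamma had higher means in 13 of 13 members tested, with 5 without overlap (16.7% over all genes) and a median log2 difference of 0.50. Irf1, a transcription factor of this response, was at 4442, 3788 and 3248 with DSP-0509 and 4985, 5713 and 5941 in the combination. The groups were apart, by 1.46-fold (1.16 to 1.84, adjusted p = 0.311), and vehicle tumors stood at 2217, 2457 and 2270. The guanylate-binding protein genes Gbp2b and Gbp5, which act in defence against intracellular microbes, had log2 differences of 0.71 and 0.50, the second without overlap. The smallest difference of the list was that of Ido1. The median was 0.22 without combination tumor 3 and 0.16 after median centring, where 8 of 13 members had a higher mean.

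All 26 tested genes of the type I interferon response had a higher mean in the combination, as did 75.5% of the panel, and 5 were without overlap, a share near the 16.7% over all genes. The median difference of 0.37 shrank to 0.034 after median centring, where 17 of 26 were higher. Oas3, Ddx60, Xaf1, Ifit2 and Mx2 were the 5 without overlap, at log2 differences of 0.29, 0.33, 0.35, 0.36 and 0.38. The largest differences belonged to genes whose DSP-0509 tumors scattered. Ifit1, an antiviral RNA-binding protein, was at 617, 216 and 136 with DSP-0509 and 542, 479 and 562 in the combination, and Stat2 at 1852, 1078 and 594 against 1770, 1878 and 2024. In both, DSP-0509 tumor 1 overlapped the combination and tumor 3 was the lowest. Ifit1 passed without DSP-0509 tumor 1 (log2 difference 1.61, adjusted p = 0.0302) and was at 0.53 without tumor 3, with an adjusted p of 0.0302 to 0.794 over all alternatives. None of the 5 interferon genes on the list (Ifna1, Ifna2, Ifna4, Ifnb1, Ifnl2) reached the filter.

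**Figure D3:**
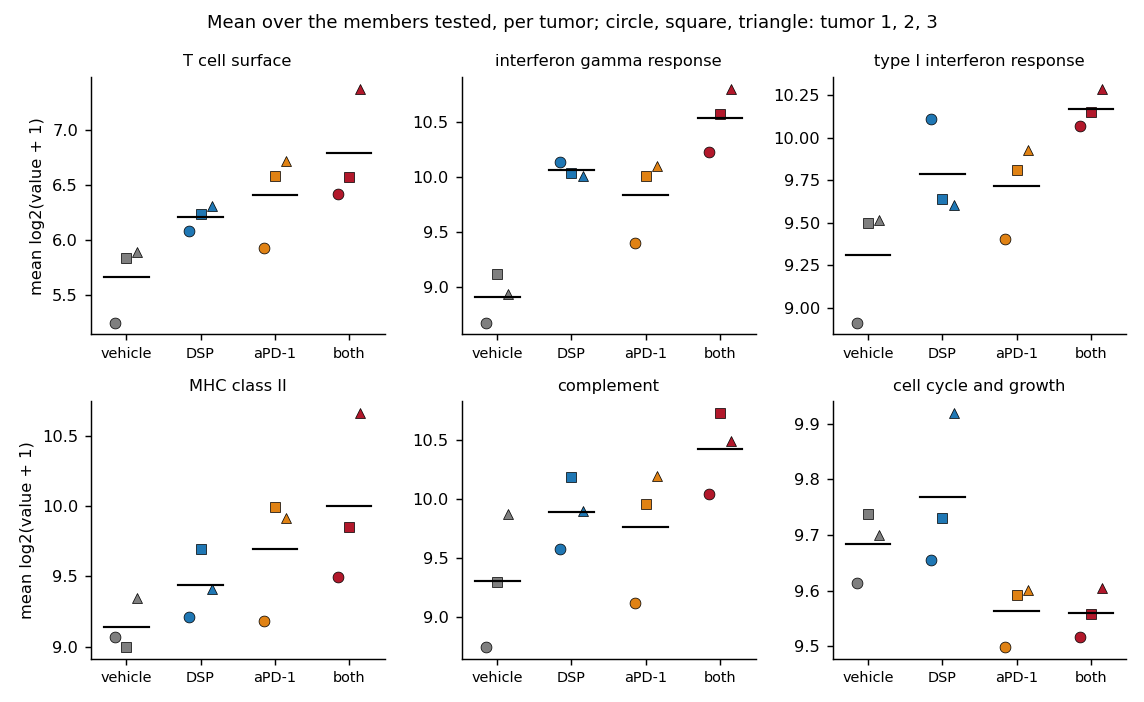
Mean log2(value + 1) over the tested members of 6 gene lists (y axes, not starting at 0) in each tumor, with a circle, square and triangle for tumors 1, 2 and 3 and a line at the group mean. Combination tumor 3 was the highest of the 12 for the T cell surface and MHC class II lists, and the combination tumors lay above the DSP-0509 tumors for the interferon gamma list and below them for the cell cycle list.

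Receptors and kinases upstream of these genes differed little. Ifnar2, a chain of the type I interferon receptor, was without overlap at 786, 714 and 421 against 821, 929 and 899.5, with DSP-0509 tumor 3 far below the rest, and its vehicle tumors were at 687, 736 and 863. Ifnar1 and Ifngr1 had log2 differences of 0.18 and 0.11, and Tyk2 of -0.13. Jak1 and Stat3 were without overlap but differed by 0.17 and 0.20 only. The list had a median of 0.14, below that of all genes.

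MHC class II genes all had higher means (10 of 10 members tested, median 0.62), as did 75.5% of all genes. Of the 10 members 0 were without overlap, where 16.7% of all genes were higher without overlap. H2-Ab1, a beta chain, was at 2094, 3436 and 2514 with DSP-0509 and 3126, 3513 and 8012 in the combination. Combination tumors 1 and 2 lay close to the highest DSP-0509 tumor and tumor 3 far above, so that the log2 difference was 0.76 (-0.089 to 1.61) with that tumor and 0.34 without it. Cd74, the invariant chain, was at 12277, 20505 and 17120 against 16793, 20747 and 43765, and Ciita, the master activator of the class, at 79.4, 158 and 139.9 against 117, 164 and 402. Combination tumor 3 was again the highest. The median of the list was 0.22 without combination tumor 3. MHC class I and peptide loading genes had a median of 0.21, near that of all genes, and of 0.12 without that tumor. Higher without overlap were 3 of 14 members tested, against 16.7% of all genes. The lists were not tested against each other. Tap1, a peptide transporter, was without overlap at 2943, 2837 and 2645 against 3107, 3564 and 4150 (0.35), as were H2-T23 (0.42) and Mr1 (0.46), while H2-K1, H2-D1 and the immunoproteasome gene Psmb9 differed by 0.11, 0.16 and 0.086.

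The gene of the DSP-0509 receptor overlapped between the groups. Tlr7 was at 123, 178 and 165 with DSP-0509 and 137, 214 and 189 in the combination, a log2 difference of 0.21 (-0.60 to 1.01) whose sign turned under quantile normalization and median centring. The 9 Toll-like receptor genes all had a higher mean on the deposited scale (median 0.30), as did 75.5% of all genes. After median centring 3 of 9 had a higher mean. Tlr9, the DNA sensor, had the largest difference (0.63), and Tlr3 and Tlr6 were without overlap at 0.37 and 0.20. Genes of the signalling chain were mixed, with 16 of 23 members tested higher and a median of 0.11. Irak2 was without overlap at 395, 338 and 447 against 482, 494 and 617 (0.43, adjusted p = 0.422), and so was the inhibitory kinase Irak3, at 71.5, 104 and 92.9 against 119, 131 and 140.0. Myd88 itself differed by 0.01, Nfkb1 by 0.013 and Irf7 by 0.40. Ticam1 and Tab1 were without overlap in the lower direction, at -0.15 and -0.13.

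Of the IL-2 family cytokines and receptors, 2 of 9 members tested were higher and 1 lower without overlap. Over all genes tested 16.7% were higher and 2.94% lower without overlap. The median was 0.30, 0.12 without combination tumor 3 and -0.029 after median centring, where 4 of 9 had a higher mean. Il7r, the IL-7 receptor chain of naive and memory T cells, was at 126, 78.3 and 85.4 with DSP-0509 and 210.1, 131 and 191 in the combination (1.83-fold, 1.26 to 2.65, adjusted p = 0.311), with a small gap between tumor 1 of DSP-0509 and tumor 2 of the combination. Its ligand Il7 was lower without overlap, at 189, 207 and 239 against 165, 156 and 167 (log2 difference -0.37, -0.76 to 0.013). Il21r was higher without overlap at 109.5, 102 and 100.3 against 175, 157 and 234 (0.84). In the IL-12 and IL-18 family 4 of 7 members tested were higher without overlap, against 16.7% of all genes, with a median of 0.54. Ebi3, a subunit of IL-27, was at 51.4, 56.8 and 44.6 against 67.6, 70.9 and 105 (adjusted p = 0.311), and Il18r1, the IL-18 receptor, at 135, 119 and 95.3 against 171, 189 and 339.6. Il12rb2, a chain of the IL-12 receptor, was at 50.3, 41.9 and 57 against 63.3, 74.6 and 79.3. In each of these genes the combination tumors lay above all DSP-0509 tumors, and Il12b was the fourth, at signals near the negative controls (11.2 to 13.6, then 14 to 25.2).

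Inflammatory cytokines overlapped between the groups. Of 11 members tested 7 had a higher mean, where 75.5% of all genes did. Without overlap were 0, where 16.7% of all genes were higher and 2.94% lower without overlap. Tnf was at 67.1, 74.5 and 114 with DSP-0509 and 82.3, 98.8 and 167 in the combination (log2 difference 0.41, -0.24 to 1.07), Il1b differed by 0.21 and Il6 by -0.38. The median of the list was 0.20, and -0.17 without combination tumor 1.

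Complement genes had higher means in 15 of 15 members tested, where 75.5% of all genes did, with a median of 0.47, 0.14 after median centring. C3, the central component of the complement cascade, was at 1496, 1295 and 916 with DSP-0509 and 2627, 2395 and 2320 in the combination. The groups were well apart, by 2.02-fold (1.36 to 2.99, adjusted p = 0.311), and vehicle tumors stood at 599, 694 and 1009. C2 (95, 129 and 131, then 202, 214 and 230.5), C4b and Cfb were without overlap as well, at log2 differences of 0.87, 0.62 and 0.47. With C3 these were 4 of 15, against 16.7% of all genes. The C1q chain genes C1qa and C1qb, made mainly by macrophages, overlapped at 0.20 and 0.34.

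Macrophage and monocyte genes differed by a median of 0.16, no more than the median of 0.20 over all genes. Higher without overlap were 5 of 19, against 16.7% of all genes, and 3 of 19 had a higher mean after median centring. Mertk, a receptor for the uptake of dying cells, had the largest difference, at 121, 183 and 120.1 with DSP-0509 and 293, 187 and 246 in the combination (1.72-fold, 1.22 to 2.42, adjusted p = 0.311). Its gap was only from 183 to 187, and the vehicle tumors stood at 179.8, 146 and 148. Cd68, a lysosomal marker of macrophages, was without overlap at 1877, 1804 and 2081 against 2230, 2568 and 2428 (0.33), and so were Emr1 (F4/80), Cd84 and Clec5a. Csf1r, Cd14 and Mrc1 overlapped, at 0.33, 0.13 and -0.054. The leukocyte tetraspanin Cd53 was at 63.7, 72.7 and 35.9 against 101, 113 and 96.1 (adjusted p = 0.311), with DSP-0509 tumor 3 the lowest of the 12, and its log2 difference of 0.89 was 0.59 without that tumor.

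Dendritic cell genes had a median of 0.30, with Ccr7 and Il12b without overlap, and the markers Itgax, Flt3 and Xcr1 overlapped at 0.30, 0.27 and 0.18. Among neutrophil genes Csf3r, the G-CSF receptor, was without overlap at 189, 174 and 146 against 293, 221 and 341 (0.73, adjusted p = 0.37), but S100a8 was at 1193, 429 and 630.2 against 1122, 368 and 492 (-0.22) and Cxcr2 at 0.59. The neutrophil list's median of 0.57 was 0.18 without DSP-0509 tumor 2. Of the mast cell genes Ms4a2 was without overlap and the others were not, as in Cma1 (245, 258 and 822, then 268, 371 and 625), and the 5 members had a median of 0.18, -0.16 without DSP-0509 tumor 2. Of the B cell markers fixed, Ms4a1 and Cd79a were among those that did not reach the filter, and Cd79b differed by -0.0097.

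Stromal genes were uneven. Col3a1, a fibrillar collagen gene, was at 10173, 10978 and 7355 with DSP-0509 and 20000, 23189 and 11395 in the combination, and Col1a1 at 4416, 4676 and 5083 against 11877, 9204 and 6006. Both were without overlap, as was Fap, the protease of activated fibroblasts (66, 98.8 and 63.1, then 131, 171 and 107), with log2 differences of 0.90, 0.88 and 0.84. Their intervals were wide (for Col3a1 -0.57 to 2.36), with vehicle tumors spread from 1665 to 12670. Pdgfrb, Fn1 and Col4a1 differed by 0.056, 0.034 and 0.047, and the median of the 10 genes was 0.18. The endothelial markers Pecam1, Cdh5, Kdr and Tek all overlapped, at 0.47, 0.11, 0.33 and 0.34. Mmp9, a matrix protease with the largest difference of the panel (1.38), was at 83.8, 72.7 and 53.2 against 451, 159 and 81.2, overlapped, and was at 0.72 without combination tumor 1.

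The lists with a median below 0 were those of growth, death receptors and epithelium. All 8 cell cycle and growth genes had a lower mean in the combination, with a median of -0.18. Over all 646 genes 158 had a lower mean. Of the 8 genes 0 were without overlap, where 2.94% of all genes were lower without overlap. Birc5 (survivin) was at 629, 894 and 1265 with DSP-0509 and 563, 690.0 and 729.7 in the combination, and Trp53 at 709, 1003 and 1356 against 745, 761 and 829.5. In both DSP-0509 tumor 3 was the highest of the 12, and without it the median of the list was -0.11. Tnfrsf10b, a receptor for the death ligand TRAIL, was lower without overlap at 298, 319.6 and 426 against 278, 271 and 261 (log2 difference -0.35, -0.72 to 0.021). Its counterpart Fas was higher without overlap (0.36), and the caspase gene Casp8 stood at -0.0008. Msln was lower without overlap, at 2135, 2057 and 2137 against 1969, 1833 and 1713 (-0.20), and the epithelial list had a median of -0.075.

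Nefl and Lrrn3 had the largest differences among genes lower without overlap. Nefl, the neurofilament light chain, was at 64.8, 80.1 and 86.7 with DSP-0509 and 51.7, 40.1 and 41.1 in the combination. All combination tumors were lower, by 1.73-fold (1.26 to 2.36, adjusted p = 0.311), and vehicle tumors stood at 71.7, 62.6 and 51.8. Lrrn3, a neuronal leucine-rich repeat protein, was at 60.4, 61.5 and 53.2 against 40.1, 38.2 and 30.8 (1.59-fold lower, 1.09 to 2.33, adjusted p = 0.422). Among the other genes lower without overlap were Il7 and Tnfrsf10b, given above, at log2 differences of -0.37 and -0.35. A further 6 of them differed by less, from -0.31 to -0.15 (Axl). They were C1qbp, a mitochondrial protein (2718, 2877 and 3601, then 2437, 2594 and 2333), Anp32b, a nuclear phosphoprotein, and the tetraspanin Cd81. With them were the kinases Mapk3 (ERK1) and Mapk8 (JNK1) and the receptor tyrosine kinase Axl. In each of these 6 DSP-0509 tumor 3, the tumor of lowest depth, was the highest of its group, and a part of depth was not tested.

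**Figure D4:**
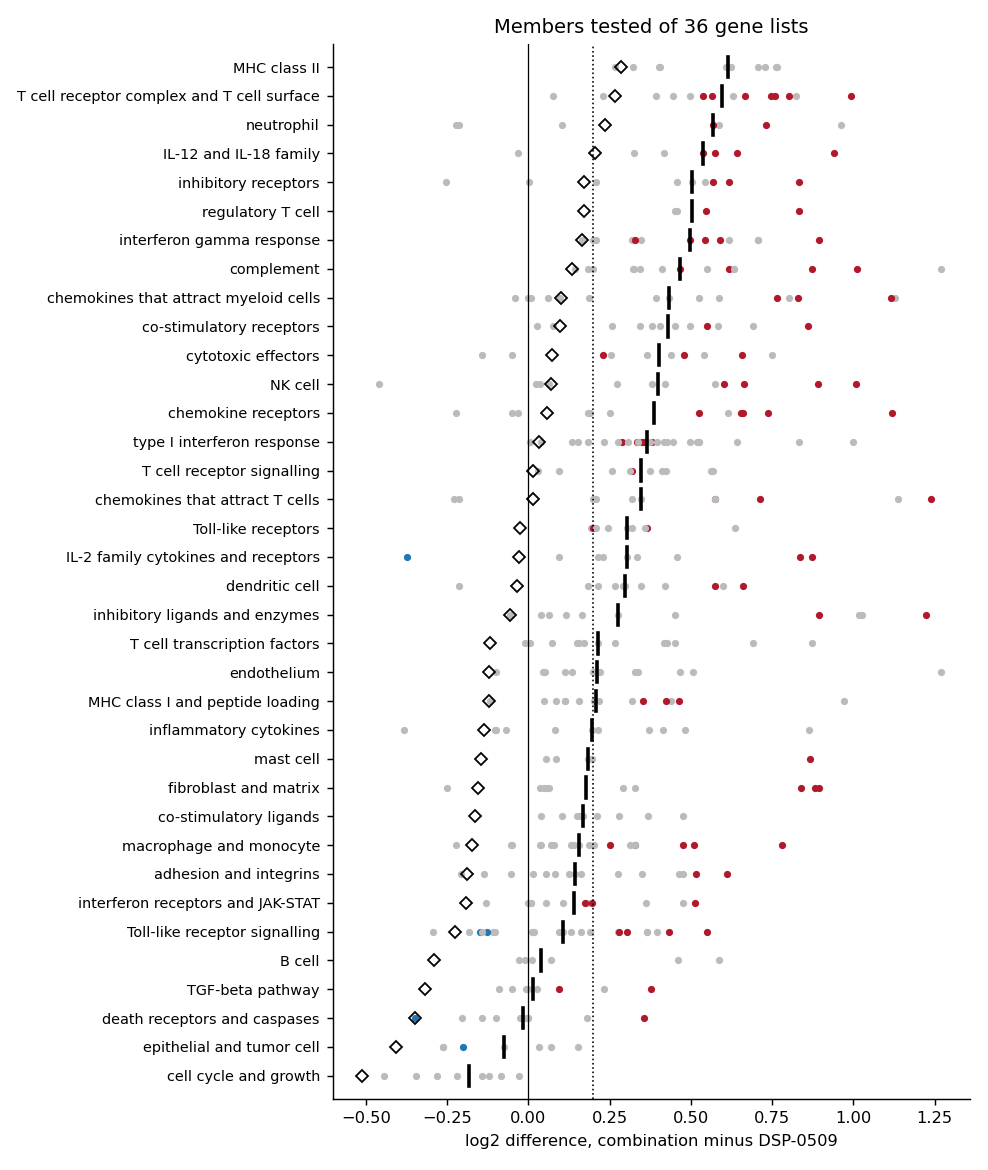
Log2 difference of the combination from DSP-0509 (x axis) for each tested member of 36 gene lists, in red or blue where all 3 combination tumors lay above or below the DSP-0509 tumors and in grey where they overlapped. Black bars are list medians on the deposited scale, open diamonds the medians after tumors were centred on their median genes, and the dotted line is the median of all genes (0.20). MHC class II and T cell surface genes had the highest medians and cell cycle genes the lowest on both scales.

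Adding anti-PD-1 antibody to vehicle was measured in the other 6 tumors, which share no sample with the comparison above but enter the same fit. The median log2 difference of anti-PD-1 antibody from vehicle was 0.18, and limma called 0 genes (0%), with 83 under 0.05 before adjustment. Across genes the 2 sets of differences correlated at Pearson r = 0.498 and Spearman rho = 0.562, a description across 646 genes that are not independent. Of the 108 genes higher without overlap on DSP-0509, 26 (24.1%) were also higher without overlap on vehicle, against 80 (12.4%) of all 646. They are 32.5% of those 80, where the share over all genes is 16.7%. List medians on DSP-0509 and on vehicle were 0.60 and 0.78 for T cell surface genes, 0.62 and 0.63 for MHC class II and 0.47 and 0.40 for complement. They were lower on DSP-0509 than on vehicle for cytotoxic effectors (0.40 and 0.94), the interferon gamma response (0.50 and 0.90) and MHC class I (0.21 and 0.62). They were higher on DSP-0509 for chemokines that attract myeloid cells (0.43 and -0.023), neutrophil genes (0.57 and 0.13) and inflammatory cytokines (0.20 and -0.17). These differences between lists were not tested.

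Whether the addition differed between the 2 backgrounds was tested as an interaction, the difference on DSP-0509 minus that on vehicle. At an adjusted p under 0.05 limma called 0 genes (0%), with 9 under 0.05 before adjustment, and the lowest adjusted p was 0.9996. The smallest unadjusted p belonged to Ido1 (0.00935). Its vehicle tumors were at 24.9, 39.2 and 23.6 and the tumors on anti-PD-1 antibody alone at 69.5, 77.3 and 94.4, all higher, with a log2 difference of 1.45. On DSP-0509 the difference was 0.16, and the interaction was -1.29 (95% confidence interval -2.18 to -0.39). Itga2b and Mertk had positive interactions, 0.86 (0.25 to 1.47) and 0.94 (0.24 to 1.63). Their anti-PD-1 tumors (21.4, 22.8 and 24.6 for Itga2b, 169, 123 and 135 for Mertk) overlapped the vehicle tumors. Among the other genes were Nefl (-0.69), Cd3eap (-0.78), Gzmm (-0.79), Psmb9 (-0.68) and Cd1d2 (-0.62). With these intervals a difference between the backgrounds was not detectable for any gene after adjustment, which does not show that the 2 additions were alike.

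**Figure D5:**
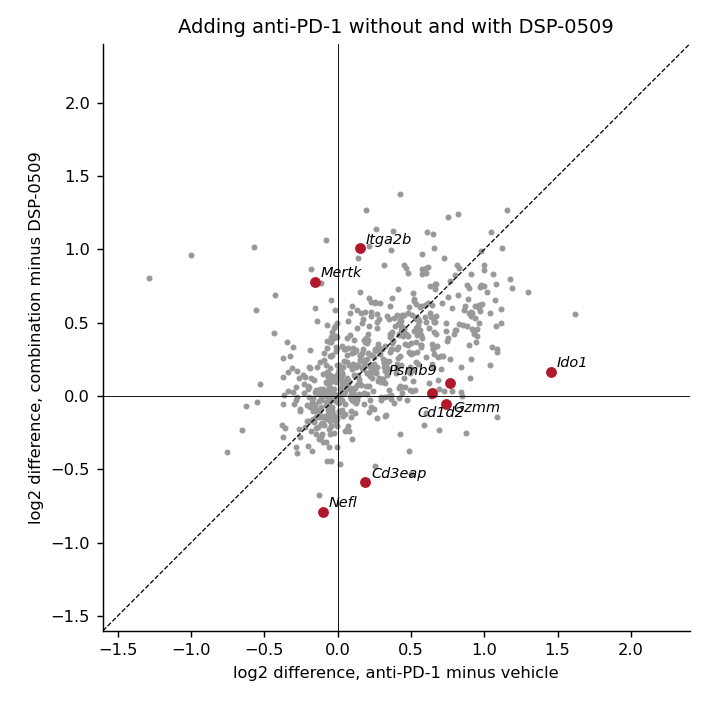
Log2 difference made by anti-PD-1 antibody on vehicle (x axis) and on DSP-0509 (y axis) for 646 genes, with the dashed line where both are equal. Red points are 8 of the 9 genes with an unadjusted interaction p under 0.05, none of the 9 passed after adjustment, and Ido1 lies farthest to the right of them at 1.45 and 0.16.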

How the data were processed

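RNA of 12 CT26 tumors, 3 per group and each from its own mouse, was extracted with a Maxwell RSC kit and hybridized to the 784 probes of the panel (750 endogenous, 20 housekeeping, 8 negative and 6 positive control). The deposited signal values were normalized by the authors in nSolver, with 1 factor per tumor and no background subtracted. The factor and the total count of each tumor were read from the steps between low values, with 100% of values within 0.1 of a whole count, and control probes were left unscaled by the authors.

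Genes with a signal of at least 20 in 3 tumors or more were kept, 1 was added and log2 was taken. limma 3.58.1 (R 4.3.3; lmFit, eBayes) was fitted over all 12 tumors, and p-values were adjusted by Benjamini-Hochberg over 646 genes. The test was tried on simulated data. Without overlap means that all 3 tumors of a group lay beyond all 3 of the other. Lists have no test and are given by counts and medians. The p-values measure the spread between these mice only.

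Members and lists were chosen with earlier results of these data known. The genes named are the 12 higher and the 12 lower genes without overlap with the smallest p, genes the study names for this model, the drug targets, and the 3 highest and lowest members of each list. Other members of lists were named after their values were seen, and some genes are not reported here.

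Same-numbered combination and DSP-0509 tumors deviated together from their group means (r = 0.592, 0.436 and 0.325 across genes, against -0.456 to 0.0521 for other pairs). Their numbers were therefore used as a block in alternative fits only, and the main fit holds no pairing. No label gives a shared litter, batch or day, and correlations in the same values cannot establish a pairing. Alternatives were a block for the number, the t-test of the methods, other scalings, filters and pseudocounts, background subtraction, array weights, the 6 tumors alone and leaving out each tumor. RefSeq accessions or symbols of GRCm38.p6 matched 763 of 770 genes. Figures were drawn with matplotlib 3.10.9.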

Additional observations from a re-analysis of the deposited data

How the results depend on the processing

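No gene passed in the main test, and the count was 1 with rescaling to housekeeping genes (Itga2b), 1 with array weights (Cd274, adjusted p = 0.0362) and 1 with the replicate block (Itga2b). Leaving out 1 tumor gave 0 to 2 genes, the 2 being Cd274 and Ifit1 without DSP-0509 tumor 1. Without adjustment there were 64 genes by limma and 61 by the t-test of the methods, and when 1 combination or DSP-0509 tumor was left out 36 (without combination tumor 3) to 98 (without DSP-0509 tumor 1) by limma and 29 to 86 by the t-test. For the interaction 9 genes had p under 0.05 without adjustment. The genes without overlap numbered 158 to 257 when a combination or DSP-0509 tumor was left out, because 2 tumors against 3 separate more easily. Quantile normalization (-0.041) and median centring (-0.13), which set the tumors to a common distribution or median, reversed the median difference of all genes. The same happened to Ido1 (-0.19 and -0.17) and Tlr7 (-0.14 and -0.12), and with centring to Cxcl10 (-0.13) and Cxcl9 (-0.012). Leaving out 1 tumor moved Ido1 between -0.044 and 0.43 and Gzma between -0.33 and 0.10, and array weights put Gzma at 0.13. The cause of these changes was not tested, except that centring takes the same 0.33 from each gene.

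The replicate block, which pairs the tumors by number, changed the call of Itga2b (adjusted p = 0.0411, or 0.0683 with only the 6 tumors fitted) and of no other of the 45 genes followed, and left 129 genes under 0.05 before adjustment against 64. A pseudocount of 10, no filter, a filter of 50, background subtraction and the fit of the 6 tumors alone gave the 45 genes the same sign and the same side of the threshold, as far as they passed the filter of 50 (41 genes). With 3 tumors per group the 95% interval reached 0.57 to either side of the log2 difference for the median gene, and genes below the brightest negative control are limited by background. The planned count test on reads recovered from the steps was not run.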

Other observations

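Receptors that co-stimulate T cells had a higher mean in 12 of 12 members tested, with a median log2 difference of 0.43 and of 0.098 after median centring. Over all genes tested 75.5% had a higher mean and 16.7% were higher without overlap. Slamf7 and Tnfrsf8 (CD30) were without overlap, 2 of 12, near the share over all genes. Slamf7 was at 101, 65.2 and 114 with DSP-0509 and 134, 142 and 239 in the combination. Tnfrsf8 was at or below the brightest negative control in all DSP-0509 tumors. The median of the list was 0.23 without combination tumor 3. Of the co-stimulatory ligands 9 of 9 members tested were higher on average, but 0 were without overlap and the median was 0.17. Among 15 adhesion and integrin genes Icam1, the ligand of LFA-1, was without overlap at 264, 301 and 244 against 349, 425 and 467, and so was Itgal, the alpha chain of LFA-1, by a narrow margin (0.52). The median of that list was 0.14. In the TGF-beta pathway 4 of 8 genes were higher on average and the median was 0.013, with Tgfb2 (0.38) and Smad2 (0.096) without overlap.

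Of the 108 genes that were higher without overlap, some of the 27 in none of the lists are described here after their values were seen. Apoe and Abca1, which carry and export cholesterol in macrophages, were at 6740, 11780 and 7490 against 12686, 12929 and 17983 and at 1617, 1130 and 929.9 against 2038, 1800 and 1664. Their log2 differences were 0.77 and 0.61, with adjusted p of 0.429 and 0.429 by limma. The activating Fc receptor genes Fcgr3 and Fcgr4 had differences of 0.60 and 0.65, and the cathepsin genes Ctss and Ctsh, whose proteases act in antigen processing, had 0.64 and 0.48. The cytokine gene Ltb (lymphotoxin beta) was at 155, 198 and 189 against 209, 261 and 441, and Vegfc, a growth factor of lymphatic vessels, at 57, 43.8 and 22.3 against 82.3, 70.9 and 70.9 (0.94, adjusted p = 0.422). In all of these genes the 3 combination tumors lay above the 3 DSP-0509 tumors, which 16.7% of all genes tested did, and none passed the test.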
